A study of Mus musculus with 3 samples.

Results

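The genes described here are 10 sensors and transcription factors of the unfolded protein response, among 55450 genes of the GENCODE M21 annotation, of which 21951 are protein-coding. The rule that defines them uses gene names and roles, and the choice was made with earlier results of these data known. They comprise the sensors Ern1, Eif2ak3, Atf6 and Atf6b, the factors Xbp1, Atf4 and Ddit3, and the membrane-bound relatives Creb3, Creb3l1 and Creb3l2. Chromatin of mouse cerebral cortices at E13.5 was immunoprecipitated with an antibody against NF-YC, a subunit of the trimeric CCAAT-binding factor NF-Y (NF-Y-ChIP), or against histone H3 trimethylated at lysine 4, a mark of active promoters (H3K4me3-ChIP), and an input library was made alongside. No genotype or treatment distinguished the 3 libraries, and there was 1 library for each antibody and 1 of input. The values come from 2 peak lists, with 733 NF-Y-ChIP and 18816 H3K4me3-ChIP peaks on mm10 (GRCm38), and a peak list of the input was not analysed here. A single library for each antibody gives no replicate error, so nothing was tested, and because the lists hold no read counts the depth is unknown. The tissue was a whole cortex, so the peaks cannot be assigned to progenitors or neurons.

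The unfolded protein response adjusts the folding capacity of the endoplasmic reticulum (ER) when misfolded proteins accumulate. IRE1α (Ern1) splices Xbp1 mRNA, PERK (Eif2ak3) phosphorylates eIF2α and thereby favours translation of Atf4, and ATF6 moves to the Golgi, where proteases release its transcription factor domain. NF-Y is known to act with ATF6 and XBP1 at the ER stress response element (ERSE), in which a CCAAT box and the sequence CCACG are separated by 9 bases, on the promoters of ER chaperones.

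The CCAAT box, written CCAAT on one strand and ATTGG on the other, is the sequence that NF-Y contacts. The boxes beneath both NF-Y-ChIP peaks of the group are shown first, from RefSeq's copy of GRCm38 and 5′ to 3′ on the strand of the gene. Capitals mark CCAAT or ATTGG, and in the second Xbp1 stretch also the CCACG that completes an ERSE. The Xbp1 stretches lie at chr11:5520857-5520886 and chr11:5520898-5520927 and the Atf4 stretch is the whole peak at chr15:80255004-80255174, all on the + strand.
Xbp1, first box: ctacaggaCCAATaagtgatgaatataccc
Xbp1, second box: agcaccggCCAATcgcggacggCCACGacc
Atf4, NF-Y-ChIP peak: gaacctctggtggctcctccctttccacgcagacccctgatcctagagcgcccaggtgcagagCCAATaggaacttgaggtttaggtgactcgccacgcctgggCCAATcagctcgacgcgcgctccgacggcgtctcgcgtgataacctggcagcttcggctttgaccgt

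The promoter of Eif2ak3 is shown because it had the most CCAAT boxes of the group and no NF-Y-ChIP peak. The stretch lies at chr6:70844206-70844505 on the + strand, ending 10 bp before the annotated start of the gene. It holds 7 boxes in capitals, and the extended form, in which CCAAT has A or G at both positions before it and is followed by C or G and then by A or G, is counted further below.
Eif2ak3, upstream: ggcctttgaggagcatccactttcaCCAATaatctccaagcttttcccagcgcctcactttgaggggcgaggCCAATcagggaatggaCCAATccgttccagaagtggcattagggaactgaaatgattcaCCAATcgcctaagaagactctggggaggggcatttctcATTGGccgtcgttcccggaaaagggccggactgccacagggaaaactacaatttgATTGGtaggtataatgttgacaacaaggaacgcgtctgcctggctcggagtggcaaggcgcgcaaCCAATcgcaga

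The single boxes of Atf6b (chr17:34647026-34647145, + strand) and Ddit3 (chr10:127290654-127290773, + strand) and the 3 boxes of Creb3l2 (chr6:37442443-37442472, chr6:37442368-37442397 and chr6:37442198-37442227, - strand) are shown for comparison, since these promoters had a box in the 300 bp window used further below and no NF-Y-ChIP peak. The first Creb3l2 box lies outside that window and is shown with the others of its promoter.
Atf6b, upstream: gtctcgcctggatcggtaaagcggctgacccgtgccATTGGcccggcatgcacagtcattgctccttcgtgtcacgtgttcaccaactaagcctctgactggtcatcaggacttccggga
Ddit3, upstream: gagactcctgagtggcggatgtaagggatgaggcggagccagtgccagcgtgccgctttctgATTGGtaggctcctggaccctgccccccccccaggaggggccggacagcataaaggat
Creb3l2, first box: ttgtcgctatttgATTGGttggctcctcca
Creb3l2, second box: accctagcaccctATTGGtccattgcgacg
Creb3l2, last box: agacgggcgttcgATTGGtcactggcctgg

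To find which of the genes NF-Y occupied in the cortex, peaks were counted that overlapped a gene or the 5 kb upstream of it. NF-Y-ChIP peaks were found at Xbp1 and Atf4, 2 of the 10 genes, against 3.69% of protein-coding genes by the same rule (810 of 21951). Both summits, the point of highest signal in a peak, lay within 1 kb of an annotated transcription start site (TSS), against 3.17% of protein-coding genes (695 of 21951). With only the stronger 50% of NF-Y-ChIP peaks by fold, a peak was found at 0 of 10. The share of protein-coding genes at that setting was not counted. H3K4me3-ChIP peaks were found at 10 of 10 genes by the first rule, against 65.4% of protein-coding genes, and at a TSS (overlap up to 1 kb away) also at 10 of 10, against 62.7%. With 10 genes, the counts are given as a description.

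**Figure D1:**
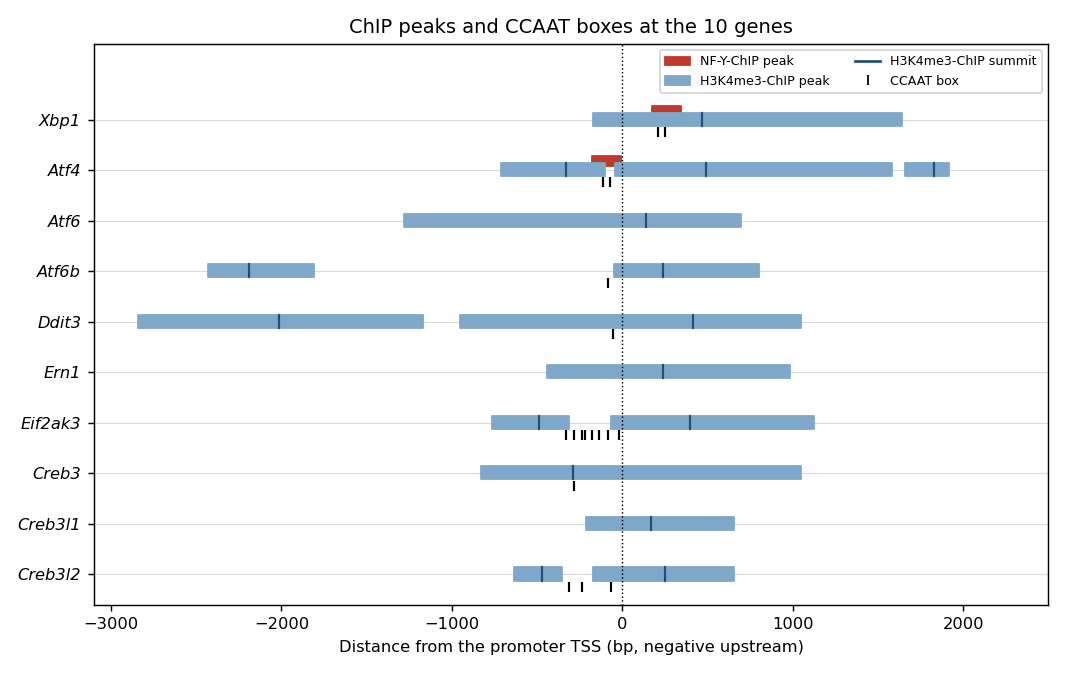
Peaks and CCAAT boxes at the 10 genes, drawn by distance in bp from the promoter TSS, with upstream to the left and every gene in the same orientation. Red bars are NF-Y-ChIP peaks, blue bars H3K4me3-ChIP peaks with their summits as lines, and black ticks CCAAT boxes searched from 500 bp upstream to 100 bp downstream of the TSS and, for Xbp1, in its NF-Y-ChIP peak. Xbp1 and Atf4 have the only red bars, and Eif2ak3 has the densest row of ticks. A peak in an intron of Creb3l1, 15795 bp downstream, is out of range.

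XBP1 is the transcription factor made from the spliced mRNA and it switches on chaperone, ER-associated degradation and lipid synthesis genes. Xbp1 lies on chr11 from 5520659 to 5525893 on the + strand. Its NF-Y-ChIP peak extended from 5520833 to 5521003, over 171 bp, with a summit at 5520891 in an annotated exon and untranslated region. The fold enrichment, which the authors' peak caller gives for each summit relative to its estimated background, was 4.64, with a −log10 p of 6.68 and a −log10 q of 2.25. By fold it ranked 630 of 733, so the peak was among the weaker ones of the list, of which the median was 6.75 and the lowest 1.46. The summit lay 232 bp downstream of the 5′-most of 4 annotated TSSs and 114 bp upstream of the TSS nearest to it. Because of this position the boxes of Xbp1 fell outside the promoter window used below, which is drawn around the 5′-most TSS. No other protein-coding gene had a TSS within 1 kb of the summit.

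Both boxes in the Xbp1 peak were CCAAT on the strand of the gene. The first lay 24 bp upstream of the summit, at 5520865 to 5520869, and the second 17 bp downstream, at 5520906 to 5520910. The second was followed after 9 bases by CCACG and so formed an ERSE, a match that 7 NF-Y-ChIP peaks held (0.956% of 732 on chromosomes 1 to 19, X and Y). The H3K4me3-ChIP peak of Xbp1 spanned 1810 bp, from 5520489 to 5522298, and covered the whole NF-Y-ChIP peak. Its fold enrichment was 63.7, rank 1316 of 18816, with the summit 466 bp downstream of the 5′-most TSS.

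ATF4 is the factor whose translation rises when eIF2α is phosphorylated and it controls amino acid and redox genes. Atf4 lies on chr15 from 80255184 to 80257541 on the + strand. Its NF-Y-ChIP peak, from 80255004 to 80255174, was also 171 bp wide, and the signal was highest at 80255051, which is 133 bp before the TSS. The fold enrichment was 4.51, with a −log10 p of 6.14 and a −log10 q of 1.77, and the rank 648 of 733. The width of 171 bp was the smallest in the list and was shared by 83 peaks, against a median of 224 bp. Xbp1 and Atf4 thus had peaks of the minimum width and of nearly the same fold, and with 1 library their difference of 4.64 against 4.51 has no error. No other protein-coding gene had a TSS within 1 kb of the Atf4 summit.

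The Atf4 peak also held a pair of boxes, both CCAAT on the strand of the gene, centred 115 bp and 74 bp upstream of the TSS. The nearer of them to the summit was 18 bp away and the other 59 bp. H3K4me3-ChIP peaks, 3 in all, lay at Atf4. The strongest, from 80255139 to 80256766, reached 65.1-fold (rank 1151) with its summit 491 bp downstream of the TSS. An upstream peak from 80254475 to 80255083 had 19.6 (rank 11436) with its summit 329 bp upstream, and a small peak in the coding sequence, from 80256845 to 80257101, had 3.79 (rank 18493). The NF-Y-ChIP peak covered the 55 bp between the first 2 of these, where no H3K4me3-ChIP peak was called, and 1 of its boxes lay in that interval.

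The boxes of Xbp1 and of Atf4 were the same distance apart, 41 bp from start to start, and in the same orientation. Among the 732 NF-Y-ChIP peaks, 252 held exactly 2 boxes and 491 held 2 or more, while 194 held 1 and 47 none. Neighbouring boxes on the same strand numbered 578 pairs in these peaks, and 36 of them (6.23%) were 41 bp apart, those of Xbp1 and Atf4 included. The commoner spacings were 32 bp, with 48 pairs, and 31 bp, with 43. Boxes on opposite strands were 41 bp apart in 1 pair. In 300 bp promoter windows that carried H3K4me3 and no NF-Y-ChIP summit, 47 of 1236 same-strand neighbours (3.8%) were 41 bp apart. These windows were wider than the median NF-Y-ChIP peak, of 224 bp, and so had room for longer spacings. The percentages therefore come from unlike regions and cannot be compared directly. By number of same-strand neighbours in the peaks, 41 bp came after 32 and 31 bp only. Counting boxes on the same strand whether or not another lay between them, 38 peaks (5.19%) held a pair 41 bp apart. The spacing was looked at after the values of these peaks were seen.

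**Figure D2:**
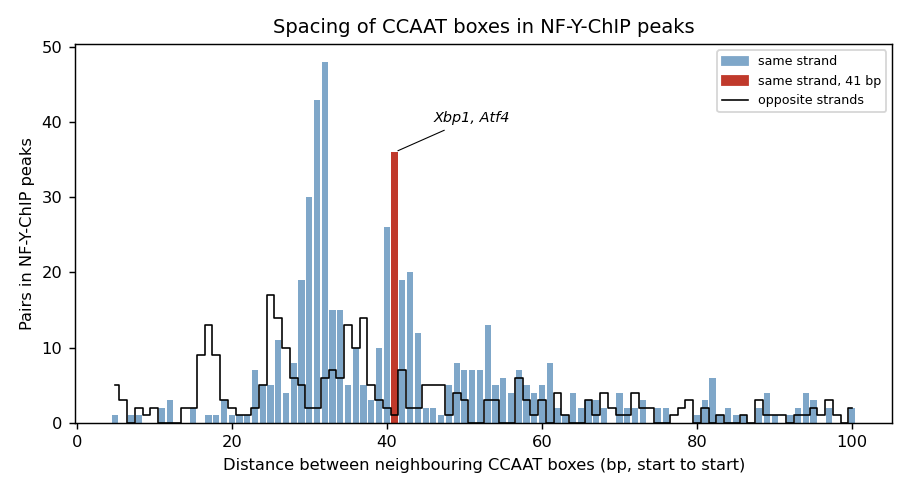
Distances in bp between neighbouring CCAAT boxes in NF-Y-ChIP peaks, from start to start. Bars count pairs on the same strand, the black line counts pairs on opposite strands, and the red bar is the 41 bp spacing of Xbp1 and Atf4, with 36 same-strand pairs and 1 opposite-strand pair.

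By the rule of nearest fold enrichment in both lists, the genes most like Xbp1 among 691 with both marks at the promoter included Rasgef1b (NF-Y-ChIP 4.65, H3K4me3-ChIP 63.7) and Smc3 (4.64 and 64.8). For Atf4 they were Smc3, Glcci1 (4.59 and 67.0) and Xbp1 itself. Likeness here is the distance between log2 fold enrichments of 1 library for each antibody.

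The sensors had H3K4me3 at their promoters and no NF-Y-ChIP peak by the same 5 kb rule. ATF6 is the membrane-bound sensor that becomes a transcription factor by cleavage. Atf6 (chr1, 170704674 to 170867771, - strand) had 1 H3K4me3-ChIP peak, which covered 170867075 to 170869050, reached a fold of 31.7 (rank 8299) and had its summit 138 bp downstream of the TSS. No CCAAT box was present from 500 bp upstream to 100 bp downstream, and the nearest NF-Y-ChIP peak was 735245 bp away.

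Its paralogue Atf6b (chr17, 34647146 to 34655074, + strand), which is regarded as the weaker activator, had an H3K4me3-ChIP peak from 34647096 to 34647945 of 49.1-fold (rank 3850), with its summit 236 bp downstream of the TSS. Its single box, in the extended form, lay 82 bp upstream. Another H3K4me3-ChIP peak of 24.4-fold counted for Atf6b by the 5 kb rule lay 2189 bp upstream, and its summit was 116 bp from the TSS of the neighbouring gene Fkbpl. The nearest NF-Y-ChIP peak, of 7.77-fold, was 43112 bp upstream of Atf6b.

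Ern1, which encodes the kinase and RNase IRE1α (chr11, 106394650 to 106487852, - strand), had an H3K4me3-ChIP peak from 106486870 to 106488291 of 48.4-fold (rank 4026), with the summit 240 bp downstream of the TSS. Like Atf6, Ern1 had no CCAAT box in the same search, and the nearest NF-Y-ChIP peak was 1213143 bp away. Atf6b and Ern1 had nearly the same promoter mark, 49.1 and 48.4, and Atf6 a lower one.

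Eif2ak3, which encodes the eIF2α kinase PERK (chr6, 70844515 to 70905245, + strand), had 8 CCAAT boxes between 330 and 18 bp upstream of its TSS, more than any other of the 10 genes, and no NF-Y-ChIP peak. The nearest one, of 4.63-fold, was 52141 bp upstream. H3K4me3-ChIP gave a peak from 70843749 to 70844202 of 13.3-fold (rank 13008), with its summit 488 bp upstream, and one from 70844446 to 70845639 of 33.7-fold (rank 7757), with its summit 396 bp downstream. The 243 bp between them, from 70844203 to 70844445, held 6 of the 8 boxes, and their GC content was 50.6%. Of the 8 boxes, 4 were of the extended form.

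Few intervals of this kind held as many boxes. Neighbouring H3K4me3-ChIP peaks less than 500 bp apart left 1918 such intervals, with a median width of 139 bp. A box was present in 521 of them (27.2%), 4 or more boxes in 26 (1.36%) and 6 or more in 3, the interval of Eif2ak3 included. An NF-Y-ChIP peak overlapped 88 of the 1918 (4.59%), that of Atf4 among them. These counts do not take account of width, which was above the median at Eif2ak3. Creb3l2 had a like interval of 186 bp with 2 boxes, and at Ddit3 an interval of 218 bp had none.

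To compare the boxes of the members with those of other genes, a window from 250 bp upstream to 50 bp downstream of the promoter TSS was searched, which is 300 bp for each gene. At least 1 box was present in 5 of the 10 genes (Atf4, Atf6b, Ddit3, Eif2ak3 and Creb3l2), against 38.8% of protein-coding promoters (8516 of 21951). At least 2 were present in 3 of 10 (Atf4, Creb3l2 and Eif2ak3), against 12.8%, and the extended form in 4 of 10, against 12.1%. Eif2ak3 had 6 boxes in this window, Atf4 and Creb3l2 2 each, and Atf6b and Ddit3 1 each.

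Among promoters with H3K4me3, the share bound by NF-Y (a summit at most 1 kb from a TSS) was higher with each further box, from 1.4% without a box (120 of 8562, Wilson 95% interval 1.17 to 1.67) through 4.5% with 1 (148 of 3290), 15.9% with 2 (200 of 1261) and 25.6% with 3 (110 of 430) to 50.9% with 4 or more (114 of 224, 44.4 to 57.4). The intervals cover counting over genes only, and they treat genes that share 1 peak as separate, which makes them too narrow. Atf4, with 2 boxes, was in a class in which most promoters had no summit, and so was Creb3l2. Xbp1 stood in the class without a box because its boxes lay downstream of the window. Eif2ak3 stood in the highest class, and with 6 boxes it was among 15 marked promoters with 6 or more. NF-Y-ChIP summits were present at 14 of the 15 (93.3%, 70.2 to 98.8), with fold enrichments of 2.97 to 24.2 and a median of 8.21, and Eif2ak3 was the only one without. The 15 include the divergent pair Xrcc3 and Zfyve21, which share 1 peak. In the wider search, from 500 bp upstream to 100 bp downstream, 20 marked promoters had 8 boxes or more and 16 of them (80.0%) had a summit. Eif2ak3 was singled out after its values were seen.

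**Figure D3:**
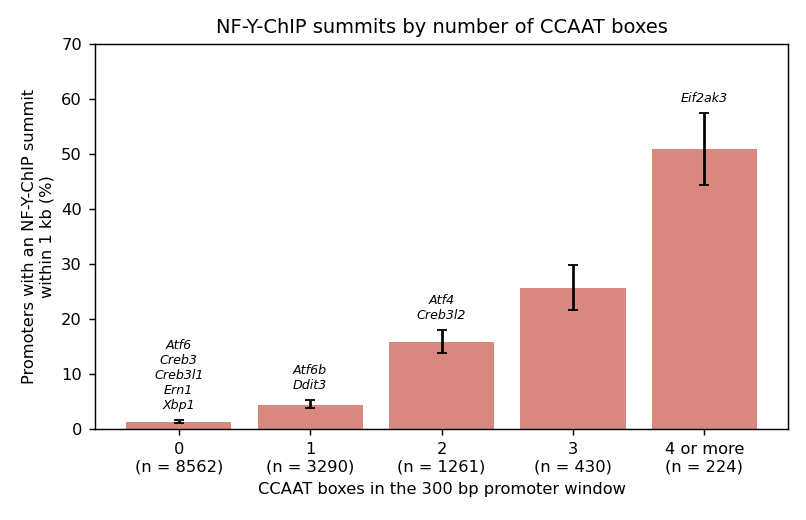
Percent of H3K4me3-marked protein-coding promoters bound by NF-Y (a summit at most 1 kb from a TSS), by the number of CCAAT boxes in the 300 bp window. Bars start at 0, and whiskers are Wilson 95% intervals that treat genes sharing a peak as separate. The number of promoters is n, and the names above each bar are the members in that class. The share is 1.4% with no box and 50.9% with 4 or more, where Eif2ak3 stands without a summit.

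How often the sequence of the Eif2ak3 promoter occurs in the reference was counted by exact match. Stretches that differ by a few bases were not searched, and the placement of reads was not tested. All 27 stretches of 50 bases, taken every 10 bases over the 317 bp that span its 8 boxes, occurred once on the 21 chromosomes, and none of the 317 bases was marked as a repeat. In each of the Xbp1 and Atf4 peaks 13 of 13 stretches also occurred once, with 11 of 171 bases marked as a repeat at Xbp1 and 0 at Atf4. With the threshold the authors used and an unknown depth, the absence of a called peak at Eif2ak3 does not show that NF-Y was absent there. Why no peak was called was not tested.

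DDIT3 (CHOP), induced by ATF4 and linked to apoptosis under prolonged stress, is encoded on chr10 from 127290774 to 127296288 on the + strand. It had the weakest promoter mark of the group, at 14.1-fold (rank 12791), in an H3K4me3-ChIP peak from 127289821 to 127291825 with a summit 412 bp downstream of the TSS. A stronger peak of 45.8-fold (rank 4664) counted for Ddit3 by the 5 kb rule had its summit 2016 bp upstream, 95 bp from the TSS of the neighbour Mbd6. The single CCAAT box lay 56 bp upstream of the Ddit3 TSS. A match to the composite element bound by ATF4 with C/EBP factors, TGATGNAA followed by C or T, was centred 279 bp upstream and so just outside the 300 bp window. The nearest NF-Y-ChIP peak was 169305 bp away.

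The CREB3 family members are membrane-bound factors cleaved in the manner of ATF6. Creb3 (chr4, 43562332 to 43567060, + strand) had an H3K4me3-ChIP peak from 43561503 to 43563378 of 60.1-fold (rank 1786). This peak was highest 287 bp before the Creb3 TSS and 112 bp from that of the neighbour Tln1, so the peak covers both starts and its signal cannot be divided between them. A box lay 283 bp upstream of Creb3, outside the 300 bp window, and the nearest NF-Y-ChIP peak was 89367 bp away.

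Creb3l1 (OASIS), known from bone and astrocytes, lies on chr2 from 91982328 to 92024502 on the - strand. It had an H3K4me3-ChIP peak at the TSS, from 92023846 to 92024713, of 25.4-fold (rank 9995) and another of 23.4-fold (rank 10445) in an intron, 15795 bp downstream. Creb3l1 was thus the only member with an H3K4me3-ChIP peak far inside the gene, and both of its peaks were of similar fold. No box was found near the TSS, and the nearest NF-Y-ChIP peak was 455499 bp away.

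Creb3l2 (BBF2H7), known for its role in cartilage secretion, lies on chr6 from 37327255 to 37442146 on the - strand. Its main H3K4me3-ChIP peak, from 37441490 to 37442315, reached 58.1-fold (rank 2109), and a smaller one from 37442502 to 37442781 had 12.2 (rank 13310) with its summit 473 bp upstream. The 3 boxes lay 311, 236 and 66 bp upstream, the first 2 of them in the interval between the peaks and all in the ATTGG orientation relative to the gene. The nearest NF-Y-ChIP peak was 6633296 bp away, the farthest of the group.

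To place the promoter mark among other genes, each gene was given the fold of its strongest H3K4me3-ChIP peak at most 1 kb from a TSS. The 10 members had fold enrichments from 14.1 to 65.1 with a median of 48.7, against a median of 39.9 over 13767 marked protein-coding genes, and 6 of 10 were above the latter. Atf4 and Xbp1 were highest, above 90.4% and 89.1% of marked genes, followed by Creb3 at 85.3% and Creb3l2 at 82.7%. Atf6b stood above 68.5% and Ern1 above 67.1%. Eif2ak3 at 39.0%, Atf6 at 35.2%, Creb3l1 at 24.4% and Ddit3 at 10.8% were in the lower part of the distribution. Both genes with an NF-Y-ChIP peak thus had the highest values of the group, which is a description of 2 genes.

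**Figure D4:**
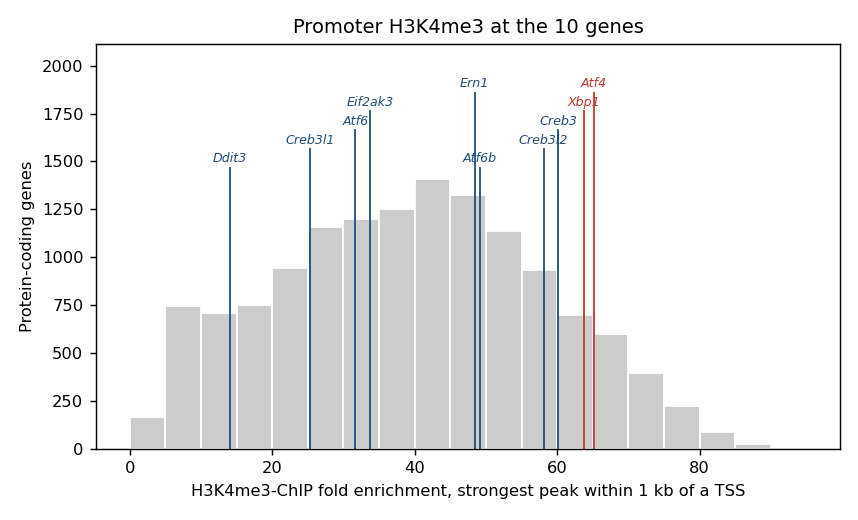
H3K4me3-ChIP fold enrichment of the strongest peak at each promoter (at most 1 kb from a TSS). Grey bars are the number of marked protein-coding genes in steps of 5, and vertical lines are the 10 members, red with an NF-Y-ChIP summit and blue without (line heights only separate the names). The lines run from 14.1 at Ddit3 to 65.1 at Atf4.

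The same counts were made in a list of 23 other regulators of the response, such as the site-1 and site-2 proteases, the eIF2α kinases and phosphatase subunits, and adaptors of IRE1α. NF-Y-ChIP peaks were found at 2 of 23. At Crebrf, a regulator of CREB3, the fold enrichment was 4.17 (rank 673, chr17, 26715474 to 26715684) with the summit 61 bp upstream of a TSS. At Traf2, which IRE1α recruits, it was 6.18 (rank 429, chr2, 25546974 to 25547167) with the summit 100 bp upstream and no box in the 300 bp window. H3K4me3 marked a promoter in 21 of 23, the others being Creb3l3 and Ern2, against 62.7% of protein-coding genes. A CCAAT box was present in the 300 bp window of 8 of 23, near the share of 38.8% over protein-coding promoters. The median H3K4me3-ChIP fold of the 21 was 39.9.

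Among 12 response genes, the chaperones and degradation factors that the pathway switches on, NF-Y-ChIP peaks were found at 9. These were Hspa5, the chaperone BiP, at 12.4 (rank 79), Pdia4 at 11.6 (91), Sel1l at 9.73 (135), Dnajb9 at 8.75 (175), Hsp90b1 at 8.24 (215), Derl3 at 7.30 (306), Herpud1 at 6.81 (346), Sdf2l1 at 4.17 (673) and Dnajc3 at 3.94 (690). Their median fold was 8.24, against 6.79 over the 695 protein-coding genes bound at a promoter, and the values of Xbp1 and Atf4 lay above only Sdf2l1 and Dnajc3. H3K4me3 was present at 12 of 12, against 62.7% of protein-coding genes, with a median fold of 46.6. A CCAAT box was present in 11 of 12 response promoters, against 38.8% of protein-coding promoters, and at least 2 in 10 of 12, against 12.8%. The share of genes with NF-Y-ChIP peaks was thus 2 of 10 in the sensors and factors, 2 of 23 in the other regulators and 9 of 12 in the response genes, beside 3.69% of protein-coding genes. With only the stronger 50% of NF-Y-ChIP peaks by fold, the counts in these lists, in the same order, were 0, 0 and 7. The share of protein-coding genes at that setting was not counted, so these counts have no matching background. Both lists were written with earlier results of these data known, so these shares are a description.

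**Figure D5:**
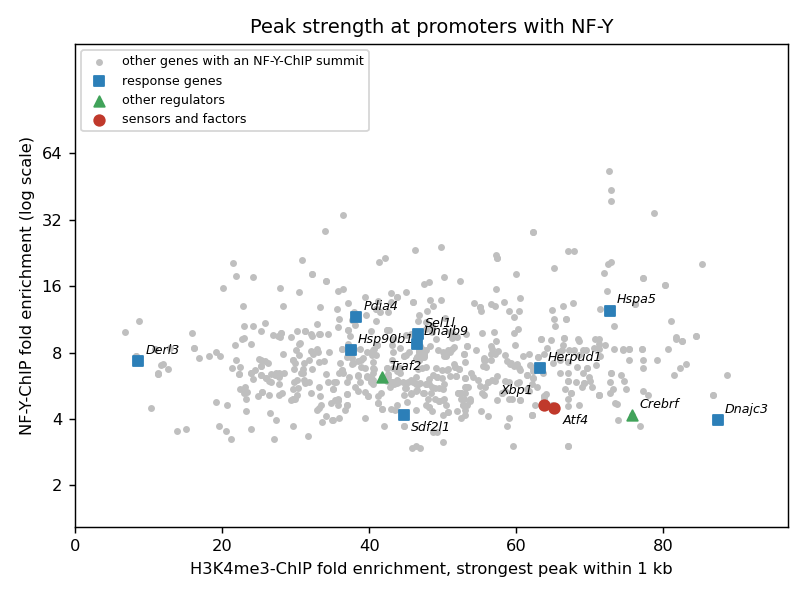
NF-Y-ChIP fold enrichment (log scale) against H3K4me3-ChIP fold enrichment of the strongest peaks at each promoter, 1 point for each protein-coding gene with both. Xbp1 and Atf4 (red) lie together at 4.64 and 4.51 on the vertical axis and 63.7 and 65.1 on the horizontal axis, below most of the response genes (blue squares).

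The elements of the response itself were searched on both strands in the same 300 bp windows, and their matches may overlap a CCAAT box, which ERSE contains. None of the 10 members held an ERSE, the ERSE-II (ATTGG, 1 base, CCACG), the XBP1 and ATF6 core TGACGTGG or the ATF4 composite element. In all protein-coding promoters these were rare, at 0.118% (26 genes), 0.0683% (15), 0.752% (165) and 1.62% (355). Among the 12 response genes, an ERSE was present in 5 (Hsp90b1, Calr, Dnajc3, Syvn1 and Derl3), an ERSE-II in 1 (Herpud1), and the ATF4 composite element in 1 (Herpud1). Among the 23 other regulators, the ATF4 composite element was present in 3 (Ppp1r15b, Chac1 and Asns) and an ERSE or ERSE-II in 0. The XBP1 and ATF6 core was present in 0 of both lists. The genes of these matches were named after the matches were seen. The ERSE of Xbp1 described above was not in the window because it lay downstream of the 5′-most TSS. A lack of matches says only that these letters were not in these windows.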

How the data were processed

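ChIP-seq libraries of input, NF-Y-ChIP and H3K4me3-ChIP came from E13.5 mouse cortices, 1 each, and the number of embryos is not given in the sources used here. The authors checked reads with FastQC, trimmed them with Trimmomatic, aligned them to mm10 with Bowtie2 (2.2.8 in the submitters' processing notes) and called peaks with MACS2 (2.1.2), with a p cutoff of 0.001 in NF-Y-ChIP and a q cutoff of 0.05 in H3K4me3-ChIP. Input was the study's negative control for the ChIP, but whether MACS2 took it as the control is not given in the sources used here. The deposited fold enrichment is that of a summit over the background MACS2 estimated, which is of the input if that was the control and of the ChIP library itself if not. The deposited −log10 values are those of p and of q for each peak. The deposited score is a rounded −log10 p or −log10 q multiplied by a constant, and it was used with these cutoffs to tell which list belongs to which antibody. The number of peaks was used for NF-Y-ChIP only, since the H3K4me3-ChIP list holds fewer peaks than the study's text gives, and the cause was not tested.

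Peaks were assigned to GENCODE M21 genes when at least 1 bp lay inside the gene or within 5 kb upstream. Every transcript's 5′ end counted as a TSS. The promoter TSS was the 5′-most within 1 kb of the strongest H3K4me3-ChIP peak. Ranks are by fold enrichment in each list. Of Ddit3's annotation records the longest was used. The genes named were the 10 members, list genes with an NF-Y-ChIP peak or without H3K4me3, the 3 genes nearest to each bound member in fold enrichment (1 of them is not reported here), neighbours with a TSS close to a member's H3K4me3-ChIP summit, list genes with an ERSE, ERSE-II or ATF4 composite element, and the pair Xrcc3 and Zfyve21. The last 3 kinds were picked after seeing values. The members and lists were chosen with earlier results of these data known. Functions were tested on simulated data. Alternatives covered the threshold, the distance, the window, the motif and the TSS set. The software was pandas 2.3.3, NumPy 2.4.6, SciPy 1.17.1 and matplotlib 3.10.9 under Python 3.11.15.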

Additional observations from a re-analysis of the deposited data

How the results depend on the processing

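Of 34 alternative settings over 8 counts and medians, 32 left the value within 1.5 times the main one or within its interval. With only the stronger 50% of NF-Y-ChIP peaks by fold enrichment, the members with a peak went from 2 to 0 and the other regulators from 2 to 0, since the peaks of Xbp1, Atf4, Crebrf and Traf2 lay below the median fold, while 7 of the 9 response genes still had one. The share of protein-coding genes with a peak was not counted at that setting or at a q under 0.05, where the members with a peak were 2. The number of members with a CCAAT box was 4 with the extended form, 6 in the window from 500 bp upstream to 100 bp downstream and, in a setting added after seeing the data, 7 with any TSS of the gene. The share of protein-coding promoters was 12.1% with the extended form. It was not counted in the wider window or with any TSS, where it may be higher too. The depth is unknown, so what it limits could not be measured. No paired analysis was possible because each antibody had 1 library and no test was made.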
